A study of Mus musculus with 75 samples.

Results

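The early response of small intestine enteric glia to endotoxin was measured in 8 RNA-seq libraries of the 75 in the study. They are all the libraries labelled as small intestine, myenteric plexus, 2 h after an injection, a comparison picked with earlier results of these data known. Of these, 4 came from mice given lipopolysaccharide (LPS, the endotoxin of Gram-negative bacteria) and 4 from mice given phosphate-buffered saline (PBS). All 8 libraries are labelled WT, and the mice carried a green fluorescent reporter transgene. Both groups had 2 females and 2 males. A single intraperitoneal dose of 2 mg/kg LPS (E. coli O111:B4) was used. The labels name the cells only as enteric glia, and they give neither the age of these mice nor the way the cells were isolated. The study also holds colon libraries of the same experiment, an untreated set, and a 24 h experiment with Gpr37 wild-type and Gpr37-/- mice. No label links a library of the 2 h experiment to an animal, so its p-values measure the spread between these libraries.

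Enteric glia are the supporting cells of the gut's intrinsic nervous system, and those of the myenteric plexus lie between the muscle layers beside the neurons that drive motility. LPS is bound by CD14 and by TLR4 with its partner MD-2, which signal through MYD88 to the transcription factor NF-kB and to MAP kinases. NF-kB switches on chemokines, cytokines and adhesion molecules, together with the inhibitors that later shut it off, while interferon regulatory factors switch on antiviral genes.

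Library totals ranged from 5343711 to 7878037 counts with LPS and from 1990744 to 7883251 with PBS. Levels are given as CPM (counts scaled to 1000000 per library), after TMM normalization for single genes. They are of total counts for sums over markers and for the untreated libraries. The libraries held the glial genes their labels imply: the summed level of 9 enteric glial markers was 4670 to 9310 CPM with LPS and 4180 to 8730 with PBS. They also held RNA of neighbouring cells: the summed level of 7 smooth muscle markers was 1530 to 19900 CPM with LPS and 3090 to 19000 with PBS, and that of 10 macrophage markers was 375 to 2130 with LPS and 526 to 3070 with PBS. These ranges overlapped, and no marker of glia, neurons, smooth muscle, macrophages, endothelium or fibroblasts passed the test between LPS and PBS. In such bulk libraries a change in the number of cells of a type and a change in RNA per cell cannot be told apart.

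With LPS, 141 genes were higher and 3 were lower than with PBS (edgeR's quasi-likelihood test, Benjamini-Hochberg adjusted p under 0.05 over 13107 genes). That is 1.1% of the genes tested in either direction, 1.08% higher and 0.0229% lower. An unadjusted p under 0.05 was reached by 681 genes. The counts depend on the method: DESeq2 called 229 genes higher and 32 lower, and leaving out each library in turn gave 1 to 6 lower genes. The 141 higher genes had a median log2 fold change of 3.25, against a median of -0.02 over all genes tested. Among those with more than 3 counts in the PBS libraries it ran from 0.71 for Lmna to 9.33 for Cxcl1. Of the 141, 7 had no PBS count, and with these at the lower bound that a floor of 3 counts gives, 29 exceeded a log2 fold change of 5, 88 lay between 2 and 5, and 24 were under 2. Their level with PBS was mostly modest: 14 had a mean under 1 CPM, 24 had 1 to 10, 79 had 10 to 100 and 24 had 100 or more. In 140 of them every LPS library was above every PBS library, a pattern found in 3.44% of all genes tested. The exception was Jchain, an antibody chain of plasma cells. In 6 untreated libraries of the same plexus, from a separate set, some of these genes were near their level with PBS and others above it. The untreated levels are CPM of total counts, not TMM-scaled like the PBS levels beside them, so the scales differ. The difference between the sets was not tested. Cxcl1 ranged from 0 to 11.7 CPM, Il6 from 0 to 2.39, Icam1 from 12.2 to 59.2, Nfkbia from 210.4 to 463 and Mt2 from 21.8 to 43.3. Junb was at 108 to 503 CPM in the untreated libraries against 37.3 to 117 with PBS, Egr1 at 148 to 581 against 64.3 to 169 and Pde4b at 53.1 to 194 against 31.1 to 90.2.

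**Figure D1:**
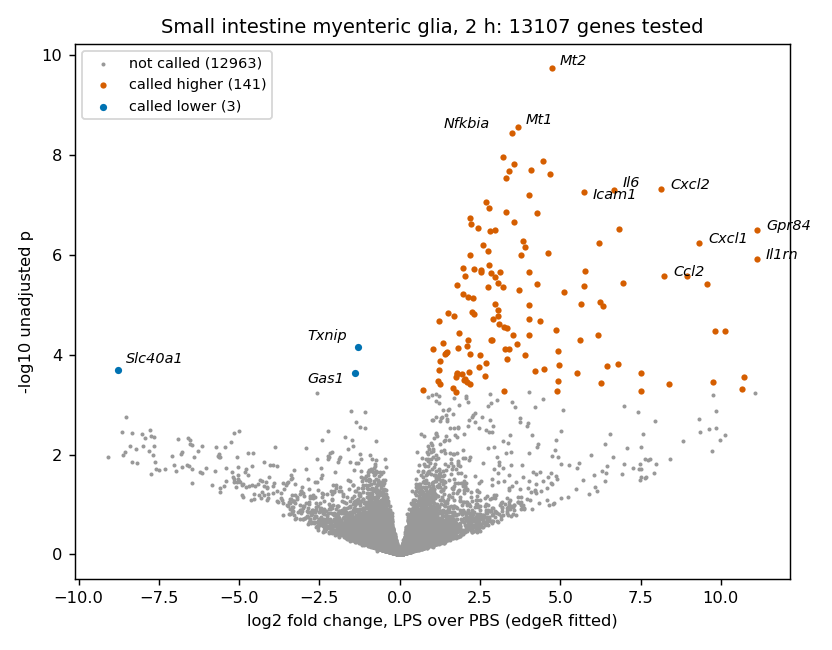
Log2 fold change of LPS over PBS (x axis) against -log10 of the unadjusted p (y axis) for each of the 13107 genes tested in small intestine glia at 2 h. Orange points are the 141 genes called higher and blue points the 3 called lower; fitted changes of genes without counts in the PBS libraries, such as Gpr84, depend on the prior count of the fit.

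To show regulatory sequence at genes described here, the 120 bases just before the start of 6 higher genes are printed from RefSeq on build GRCm38.p6, 5′ to 3′ in the direction of the gene. Capitals mark matches to the NF-kB consensus in the first 5 genes, which encode an inhibitor of NF-kB, 3 chemokines and a cytokine, and matches to GAAA, 2 bases of any kind and GAAA, the core of the interferon-stimulated response element, in Ifit1. Both strands were searched.
Nfkbia (chr12:55492648-55492767, minus strand): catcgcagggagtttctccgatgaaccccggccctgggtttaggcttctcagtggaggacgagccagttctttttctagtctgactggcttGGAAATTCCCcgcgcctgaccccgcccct
Cxcl1 (chr5:90891125-90891244, plus strand): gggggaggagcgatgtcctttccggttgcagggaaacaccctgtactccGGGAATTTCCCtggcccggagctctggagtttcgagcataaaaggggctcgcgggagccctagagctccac
Cxcl2 (chr5:90903779-90903898, plus strand): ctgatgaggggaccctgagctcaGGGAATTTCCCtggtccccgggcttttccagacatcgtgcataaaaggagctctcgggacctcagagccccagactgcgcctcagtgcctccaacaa
Il6 (chr5:30012994-30013113, plus strand): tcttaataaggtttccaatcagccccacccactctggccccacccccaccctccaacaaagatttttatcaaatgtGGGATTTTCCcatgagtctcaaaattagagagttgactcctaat
Cxcl10 (chr5:92348890-92349009, minus strand): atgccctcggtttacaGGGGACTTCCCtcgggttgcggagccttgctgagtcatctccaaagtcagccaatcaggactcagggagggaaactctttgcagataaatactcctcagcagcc
Ifit1 (chr19:34640769-34640888, plus strand): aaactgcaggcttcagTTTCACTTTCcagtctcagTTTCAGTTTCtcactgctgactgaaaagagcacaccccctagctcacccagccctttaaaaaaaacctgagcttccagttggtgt

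The neighbouring genes Cxcl1 and Cxcl2 on chromosome 5 carry the same capital letters, 71 and 97 bases before their starts, and in each the run holds 2 overlapping matches. The match in Nfkbia begins 29 bases before its start and that in Il6 44 bases before. Ifit1 holds matches 104 and 85 bases before its start. Over windows of 300 bases (250 before to 50 after the start), at least 1 match to the NF-kB consensus was in 36 of the 143 promoter entries found for 107 of the 141 higher genes, or 25.2%. The share was 10.6% of the entries for all genes tested and 8.46% of all 32851 mouse entries. For the interferon element core the shares were 6.29%, 3.23% and 3.44%. These are matches of letters and not measured binding.

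Among 15 tested genes that sense LPS or carry its first signal, 3 were higher and none was lower (median log2 fold change of the list 0.22). Cd14, the co-receptor that hands LPS to TLR4, stood at 790, 624, 1323 and 778 CPM with LPS and at 20.3, 17.6, 49.2 and 53.5 with PBS. The groups were far apart, with a log2 fold change of 4.63 ± 0.61 (SE; adjusted p = 0.000368, edgeR). Tlr2, the receptor for bacterial lipoproteins, rose with a log2 fold change of 3.33 ± 0.58, and Myd88, the adaptor shared by most Toll-like receptors, with 2.75 ± 0.41. The LPS receptor itself did not pass the test: Tlr4 was low, at 1.61 to 45.6 CPM with LPS and 9.1 to 69 with PBS, with a log2 fold change of -0.94 ± 0.97. Ly96, which encodes MD-2, was at most 10.6 CPM in any of the 8 libraries. Tlr4 and Ly96 gave overlapping values in the 2 groups.

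Of 20 NF-kB subunits and inhibitors, 10 were higher and none lower, with a list median of 2.9 (2.81 with 1 gene without a PBS count at its bound). The most abundant was Nfkbia, which encodes the inhibitor that holds NF-kB in the cytoplasm and is itself an NF-kB target. It stood at 3479, 2615, 3836 and 2807 CPM with LPS and at 176, 370, 378 and 203 with PBS. The lowest LPS library was still far above the highest PBS library, and the log2 fold change was 3.50 ± 0.31 (adjusted p = 1.56e-05, edgeR). Tnfaip3, which encodes the ubiquitin-editing inhibitor A20, was at 401, 473, 546 and 354 CPM with LPS and at no more than 8.27 with PBS, a log2 fold change of 6.24 ± 0.99. Its binding partners rose too, Tnip1 by 3.29 ± 0.63 and Tnip3 by 8.93 ± 1.29 on the log2 scale. Tnip3 was near 0 with PBS, at 0 to 1.1 CPM. The nuclear inhibitor-like proteins Nfkbiz and Bcl3, which tune which targets NF-kB turns on, rose by 3.72 ± 0.56 and 4.38 ± 0.75 on the log2 scale. The inhibitor gene Nfkbib rose by 2.31 ± 0.38. Among the subunits, Relb rose by 2.55 ± 0.36, Nfkb2 by 2.13 ± 0.33 and Rela by 1.83 ± 0.33. The other subunits did not pass the test, although all LPS values exceeded all PBS values for Nfkb1 (47.8 to 70.9 against 15.7 to 41.4 CPM) and for Rel (40.2 to 73.5 against 0.883 to 16.3 CPM).

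Immediate early genes, which cells transcribe within minutes of a stimulus from factors already present, had the highest share of called genes of the 20 lists: 14 of 22 were higher, with a list median of 2.2. Junb, a member of the AP-1 family, was at 1587, 1097, 1927 and 1130 CPM with LPS and at 37.3, 76.5, 103 and 117 with PBS. All LPS values lay far above, with a log2 fold change of 4.10 ± 0.41 (adjusted p = 3.37e-05, edgeR). The zinc-finger factor Egr1 rose by 2.78 ± 0.38, Jun by 1.70 ± 0.28, Jund by 1.22 ± 0.21 and Myc by 3.65 ± 0.69 on the log2 scale. Fosl1, another AP-1 member, had no count with PBS and 5.73, 57.3, 10.7 and 19.5 CPM with LPS, which is at least 30.2-fold higher (against a floor of 3 counts in each PBS library) and at least 15.5-fold without LPS replicate 2. Fos did not pass the test, at 490 to 1007 CPM with LPS and 184 to 628 with PBS. Some calls were less firm. Atf3 was called in 4 of the 8 fits that each left out 1 library (adjusted p from 0.00905 to 0.0879), Egr2 in 5 (0.0261 to 0.0875) and Ier5 in 2 (0.0328 to 0.137).

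On a list of MAP kinase phosphatases, regulators of RNA decay and GADD45 stress genes, 6 of 17 tested were higher (list median 1.24). Dusp1, the phosphatase that switches off p38 and JNK, was at 1102, 974, 1262 and 950 CPM with LPS and at 98.7, 210, 294 and 272 with PBS, a log2 fold change of 2.29 ± 0.36 (adjusted p = 0.00157, edgeR). Zfp36, which encodes tristetraprolin, a protein that binds AU-rich messages such as that of Tnf and leads to their decay, was at 846, 676, 1295 and 585 CPM with LPS and at 57.6, 69.7, 134 and 142 with PBS. Neither gene's groups overlapped. Gadd45b, Gadd45g, Dusp2 and Zfp36l1 completed the 6, with log2 fold changes of 4.29, 3.54, 6.18 and 1.98. The ERK phosphatase gene Dusp6 went the other way without passing the test, with a log2 fold change of -0.96 (adjusted p = 0.62, edgeR).

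**Figure D2:**
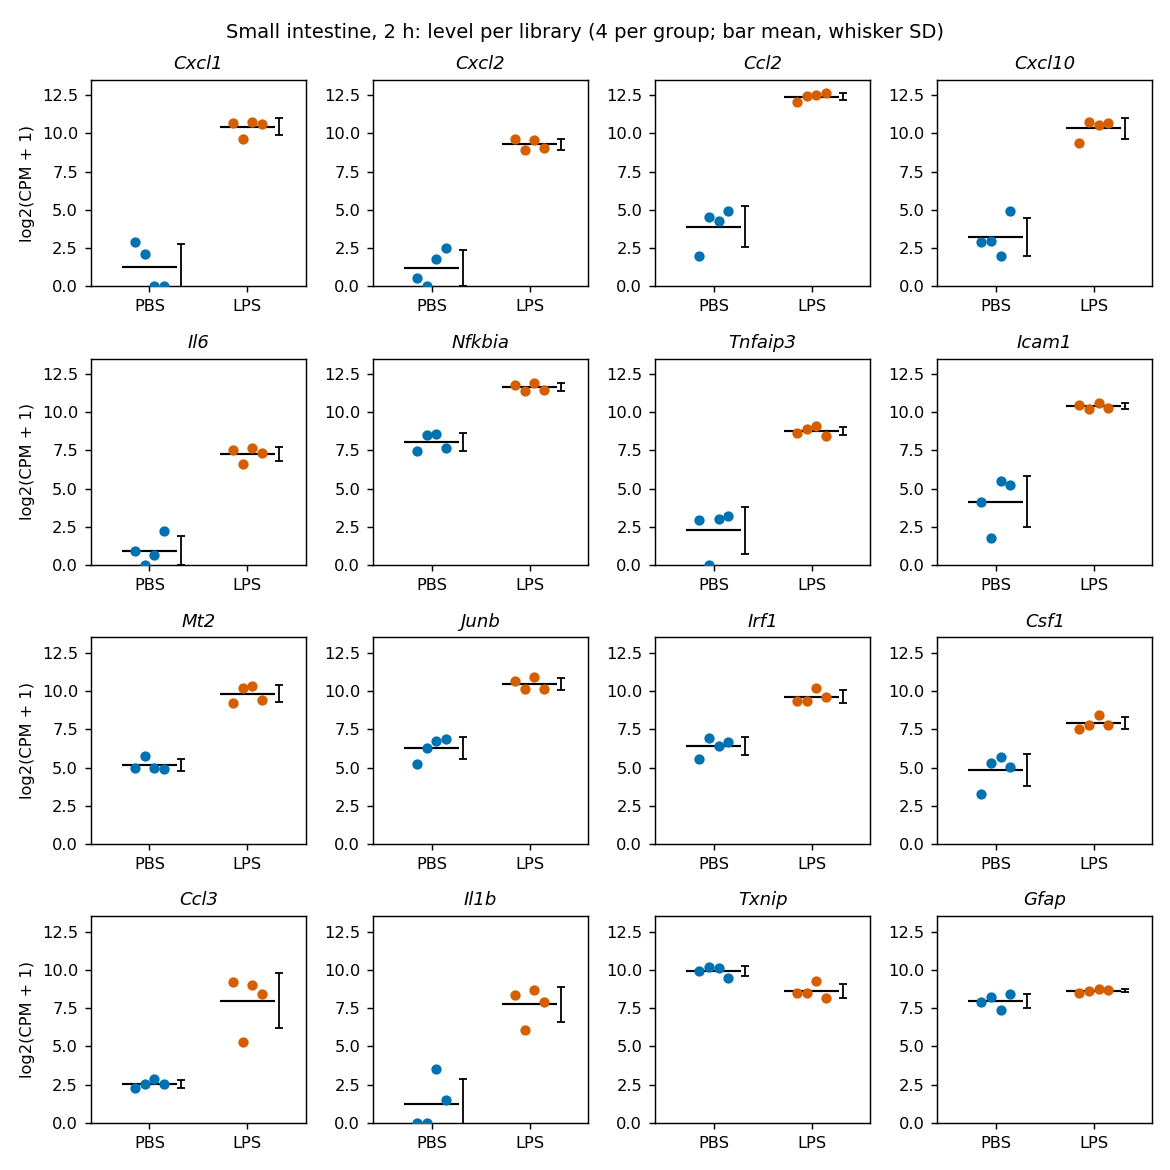
Level of 16 genes in each small intestine library at 2 h, as log2(CPM + 1) (y axis), for 4 PBS (blue) and 4 LPS (orange) libraries; the bar is the mean and the whisker the SD. The groups are apart in each panel, with LPS below PBS for Txnip, and only Gfap among the 16 did not pass the test.

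Of 11 CXC chemokines tested, 4 were higher (list median 4.0, or 2.87 with genes without a PBS count at their bound), and of 15 genes on the CC chemokine list, 5 were (list median 3.51). Ccl2, which draws monocytes through CCR2, was among the most abundant genes that rose, at 4251, 5540, 5686 and 6245 CPM with LPS and at 2.87, 21.9, 17.9 and 29.1 with PBS. The LPS libraries lay close together and the log2 fold change was 8.24 ± 1.18 (adjusted p = 0.000725, edgeR). Ccl7, another ligand of CCR2, was at 339 to 908 CPM against 5.3 to 15.5. Cxcl1, a neutrophil attractant that acts through CXCR2, was at 1656, 777, 1739 and 1572 CPM with LPS and at 6.41, 3.41, 0 and 0 with PBS. Cxcl2, with the same receptor, was at 798, 487, 745 and 515 with LPS and at 0.442, 0, 2.41 and 4.79 with PBS. Their log2 fold changes were 9.33 ± 1.19 and 8.15 ± 0.87. Cxcl10, an interferon-inducible attractant of T cells, was at 644, 1738, 1482 and 1605 CPM with LPS and at 6.63, 6.82, 3.01 and 29.9 with PBS, a log2 fold change of 6.83 ± 0.83. The third called ligand of CXCR2, Cxcl5, was low and less firm: it was at 1.64, 38.6, 27.4 and 21.1 CPM with LPS and had no count with PBS (at least 28.7-fold higher), and it was called in 1 of the 8 fits without a library (adjusted p from 0.0237 to 0.119). Cxcl12, which glia and stroma express at rest, gave overlapping values, 105 to 165 CPM with LPS and 29.2 to 211 with PBS.

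Ccl3 and Ccl4, the macrophage inflammatory proteins, were uneven among the LPS libraries. Ccl4 was at 1513, 121, 1456 and 1271 CPM in LPS replicates 1 to 4 and at 9.72, 0, 15.7 and 8.62 with PBS. Ccl3 was at 583, 38.8, 518 and 342 with LPS and at 3.75 to 6.42 with PBS. LPS replicate 2 was the low library in both, and it was more than 3 times lower than the next LPS library in 5 of the 141 higher genes: Ccl3, Ccl4, Il1a, Il1b and Csf3. The same library had the lowest level among the LPS libraries in 9 of 10 macrophage markers and the lowest macrophage sum, 375 CPM. It also stood apart for other cells. It was the lowest LPS library in 7 of 7 endothelial markers (sum 7.3 CPM, against 157 to 236 in the other LPS libraries) and the highest in 7 of 7 smooth muscle and 4 of 4 mesothelium markers. No macrophage marker was at 0 in all libraries, and the part of these cell types in the 5 genes was not tested. LPS replicate 2 was the lowest LPS library in 39 of the 141 higher genes, Cxcl1, Cxcl2, Il6, Il1rn and Tnip3 among them, and the highest in 43. Without LPS replicate 2 all 5 genes remained called, Ccl3 with a log2 fold change of 6.59 and Il1b with 6.65.

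Of 20 tested cytokine and growth factor genes, 8 were higher (list median 4.73, or 3.9 with genes without a PBS count at their bound). Il6, the cytokine that drives the acute phase and STAT3, was at 185, 96.7, 198 and 160 CPM with LPS and at 0.883, 0, 0.602 and 3.71 with PBS, a log2 fold change of 6.66 ± 0.71 (adjusted p = 5.38e-05, edgeR). Csf1, the growth factor on which gut muscularis macrophages depend, was at 184, 219, 348 and 219 CPM with LPS and at 8.84, 39, 50 and 31.6 with PBS. Both genes were separated in all 8 libraries. Members of the interleukin 1 family rose together: Il1b was at 65.3 to 410 CPM against 0 to 10.2, Il1a at 14.1 to 106 against at most 0.487, and the receptor antagonist Il1rn at 59.9 to 294 against at most 0.12. With 1 count in all PBS libraries, the ratio of Il1rn was 3243 with an exact 95% interval of 582 to 128100, and that of Il1a was 1238 with 222 to 48920; both intervals cover counting error only. Csf3, the neutrophil growth factor, had no count with PBS and 45.4, 2.01, 70.1 and 47.7 CPM with LPS (at least 53.5-fold higher), and was called in 1 of the 8 fits without a library (adjusted p from 0.0231 to 0.133). Tnfsf9 and Hbegf were called in 2 (0.00295 to 0.133) and 1 (0.00311 to 0.122) of them. Tnf itself did not pass the test, at 11.5 to 63.5 CPM with LPS and 0 to 3.95 with PBS.

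Of 22 tested receptors for cytokines, 19 gave overlapping values and 2 were higher, with a list median of 0.62. They were Tnfrsf12a, the receptor for TWEAK, at 74.2, 109, 95.4 and 73 CPM with LPS and 7.73, 14.6, 12.8 and 10.2 with PBS, and Il4ra, at 246 to 268 against 40.8 to 119. Il4ra was called in 7 of the 8 fits without a library (adjusted p from 0.00447 to 0.05), and not without PBS replicate 2. Downstream, 5 of 17 JAK-STAT genes were higher (list median 0.87), and all 5 were targets that feed back or promote survival. Socs3, the inhibitor of interleukin 6 signalling, was at 859, 862, 1278 and 806 CPM with LPS and at 14.8, 97.5, 151 and 136 with PBS, a log2 fold change of 3.25 ± 0.57 (adjusted p = 0.00459, edgeR). Cish rose by 4.86 ± 0.86 and the kinase gene Pim3 by 2.14 ± 0.40. Pim1 and Socs2 were called in 3 (0.025 to 0.0759) and 4 (0.0309 to 0.101) of the 8 fits without a library. Stat3 was higher in every LPS library, at 261 to 601 CPM against 140 to 255, but its adjusted p was 0.3.

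Interferon-stimulated genes answered in part, with 5 of 31 tested higher and none lower (list median 1.16). Irf1, a transcription factor induced by both NF-kB and interferon signalling, was at 654, 652, 1193 and 790 CPM with LPS and at 47, 119, 84.3 and 102 with PBS, a log2 fold change of 3.22 ± 0.31 (adjusted p = 3.27e-05, edgeR). Ifit1, which binds viral RNA and whose promoter is printed above, was at 510, 1929, 1328 and 1599 with LPS and at 43.7, 103, 103 and 77.6 with PBS. The GTPase gene Irgm1 was at 625 to 1183 CPM against 156 to 312. None of these 3 overlapped between groups. The GTPase genes Gbp5 and Iigp1 were called in 2 (0.0245 to 0.152) and 3 (0.0338 to 0.187) of the 8 fits without a library. Classical members did not pass the test: Isg15 was at 69.5 to 113 CPM against 19.2 to 41.4 (adjusted p = 0.117, edgeR) and Rsad2 at 172 to 512 against 14.8 to 56.6 (adjusted p = 0.0529), both with every LPS library above every PBS library. None of 12 tested genes of MHC class I presentation was called (list median -0.05); the nearest, the peptide transporter gene Tap1, was at 121 to 280 CPM against 62.4 to 169.

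The smallest p-values of all belonged to the metallothioneins, small proteins that bind zinc and copper and are induced by metals, glucocorticoids and cytokines. Mt2 was at 607, 1197, 1300 and 689 CPM with LPS and at 30, 53.1, 30.7 and 28.8 with PBS, a log2 fold change of 4.74 ± 0.35 (adjusted p = 2.37e-06, edgeR). Mt1 was at 1796, 2942, 3370 and 1867 with LPS and at 174, 216, 182 and 199 with PBS, a log2 fold change of 3.69 ± 0.32. The spread within each group was small beside the gap. They stood on a list with glucocorticoid targets on which 4 of 17 tested genes were higher (list median 0.45), the other called genes being the transcription factor genes Cebpd (2.70 ± 0.30) and Cebpb (3.89 ± 0.77; called in 6 of the 8 fits without a library, with adjusted p from 0.0062 to 0.0577, and not without PBS replicate 1 or 3). No other member of that list passed the test. Per1, Errfi1 and Map3k6 lay higher in every LPS library. Tsc22d3, which encodes GILZ, lay lower in every LPS library, at 169 to 454 CPM against 504 to 1319 (adjusted p = 0.1, edgeR), as did Cebpa, and the rest, Fkbp5 among them, overlapped.

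Icam1, the adhesion molecule that leukocytes bind, was the only called gene of 9 on the adhesion list (list median 1.05). It was at 1442, 1183, 1554 and 1260 CPM with LPS and at 16.4, 2.44, 44 and 37.2 with PBS, a log2 fold change of 5.74 ± 0.62 (adjusted p = 5.38e-05, edgeR). Vcam1 was higher in every LPS library, at 398 to 519 against 165 to 363, with an adjusted p of 0.379. Of 16 genes of cell death and survival, 7 were higher (list median 2.19). Birc3, which encodes the inhibitor of apoptosis cIAP2, was at 205, 275, 404 and 424 CPM with LPS and at 18.6, 7.8, 11.6 and 12.5 with PBS. Ripk2, the kinase of NOD signalling, rose by 4.03 ± 0.44 and the death receptor gene Fas by 2.75 ± 0.36 on the log2 scale. Genes that promote and genes that block cell death both rose. Casp4, the caspase gene of the LPS-sensing inflammasome, and the survival gene Mcl1 were called in 3 (0.0341 to 0.129) and 2 (0.0105 to 0.16) of the 8 fits without a library, and Bcl2a1b has near-identical copies between which reads may be split.

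Of 21 tested effector genes of the acute phase, 4 were higher (list median 2.48). Lcn2, the iron-siderophore binding protein and a marker of reactive astrocytes, was at 18.4, 20.7, 77.5 and 41.6 CPM with LPS and at 3.75, 0, 0.803 and 0.24 with PBS. Its log2 fold change was 4.97 ± 1.03, and it was called in 4 of the 8 fits without a library (adjusted p from 0.00909 to 0.0875). Sod2, the mitochondrial superoxide dismutase, was at 264 to 405 CPM against 122 to 167, and was called in 3 of the 8 (0.0252 to 0.0966). Ch25h and Acod1 were called in 3 (0.0336 to 0.094) and 0 (0.0521 to 0.0891). Ptgs2, which encodes COX-2, was at 43.8 to 116 against 0 to 8.62 with an adjusted p of 0.0863. Among matrix genes, 3 of 14 were higher (list median 1.25). Among them were the aggrecanase genes Adamts1, at 361 to 687 CPM against 33.4 to 79.7, and Adamts4.

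**Figure D3:**
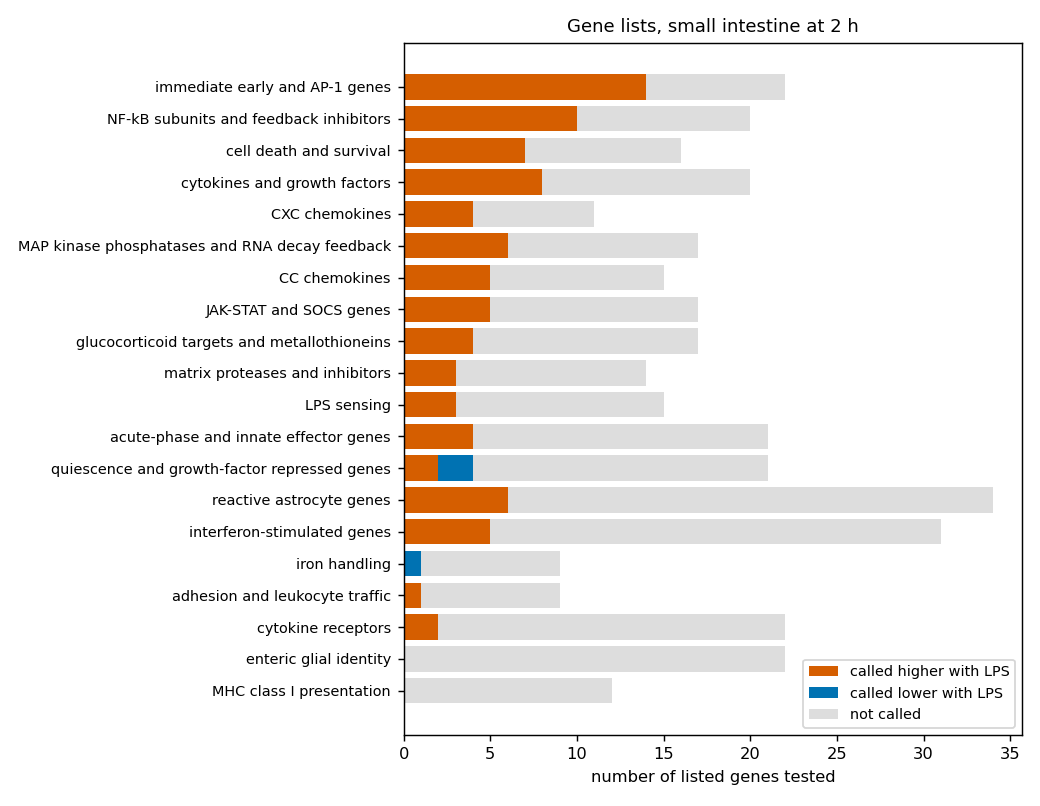
Number of tested genes on each of 20 gene lists (x axis) that were called higher (orange), called lower (blue) or not called (grey) with LPS at 2 h in the small intestine, ordered by the share called. The share was highest for immediate early genes, 14 of 22, and 0 for enteric glial identity, 0 of 22, and for MHC class I presentation, 0 of 12.

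Of the 141 higher genes, 56 were on none of the 20 lists. Those with the smallest p included Pde4b, the phosphodiesterase that breaks down cyclic AMP, at 1142, 1713, 1401 and 999 CPM with LPS and 31.1, 51.7, 67 and 90.2 with PBS. Sdc4, the heparan sulfate proteoglycan syndecan-4, was already abundant, at 719 to 957 with PBS, and reached 2786 to 5966 with LPS. Ppp1r15a, which encodes GADD34, the phosphatase subunit that ends the stress block on translation, rose by 3.56 ± 0.35, the pseudokinase gene Trib1 by 3.41 ± 0.34 and the calcineurin regulator gene Rcan1 by 3.31 ± 0.34 on the log2 scale. Gpr84, a receptor for medium-chain fatty acids, had no count in the 4 PBS libraries and 58.3, 42.2, 98.2 and 34 CPM with LPS, at least 75.4-fold higher. These 6 genes were picked among genes without overlap between the groups, so the separation of their values follows from the choice. Among the other called genes, Pakap with Akap2 and Trex1 with Atrip overlap in part on the same strand in the annotation, and reads in the shared stretch cannot be told apart.

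The 3 lower genes were Txnip, Slc40a1 and Gas1. In each, every LPS library was below every PBS library, a pattern found in 2.04% of all genes tested. Txnip, an inhibitor of thioredoxin and of glucose uptake, was at 356, 351, 622 and 291 CPM with LPS and at 992, 1182, 1118 and 723 with PBS. It fell by 1.31 ± 0.25 on the log2 scale (adjusted p = 0.0097, edgeR), a call kept in all 8 fits without a library. Slc40a1, which encodes the iron exporter ferroportin, had 1 count in the 4 LPS libraries together, against 31.1, 13.2, 36.7 and 33.7 CPM with PBS. The ratio of LPS to PBS was 0.00106, with an exact 95% interval up to 0.00594 for counting error only. Although its values were far apart it was called in 1 of the 8 fits without a library (adjusted p from 0.035 to 0.0971). Gas1, named for its rise in growth arrest, was at 60.6, 80.4, 35.8 and 40.9 against 150, 94.6, 174 and 157, and was called in 2 of the 8 (0.0109 to 0.107). On the list of quiescence and growth-factor repressed genes, 2 of 21 were lower, these being Txnip and Gas1, and 2 were higher, Id3 and Btg2 (list median -0.15). No other gene of iron handling was called among 9 tested (list median 0.14).

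None of the 22 tested genes of enteric glial identity was called, with a list median of -0.04. This cannot exclude 2-fold changes, of which the comparison recovered 0% on simulated counts. Gfap, the filament protein used to mark reactive glia, was at 364, 387, 426 and 404 CPM with LPS and at 235, 304, 165 and 337 with PBS. Every LPS library was above every PBS library by a narrow margin, and the log2 fold change was 0.60 ± 0.33 (unadjusted p = 0.084, adjusted p = 1, edgeR). Sox10, the transcription factor of the glial lineage, was at 116, 74.8, 175 and 69.8 with LPS and at 134, 212, 339 and 222 with PBS. Its log2 fold change was -1.06 ± 0.44 (unadjusted p = 0.0267, adjusted p = 0.713, edgeR). S100b was at 276 to 414 against 276 to 559. Gpr37, the glial receptor that the study deletes in its later experiment, was at 21.8, 0.603, 7.67 and 40.9 CPM with LPS and at 30.3, 44.4, 34.5 and 30.4 with PBS. Its LPS libraries scattered widely around a log2 fold change of -0.97 ± 1.45, and the groups overlapped. On the list of reactive astrocyte genes, 6 of 34 were higher: Cd14, Cxcl10, Sphk1, Slc10a6, Lcn2 and Iigp1. Vim, the abundant intermediate filament gene of that list, overlapped between groups, at 2365 to 3800 CPM with LPS and 2498 to 4254 with PBS.

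Markers of lymphocytes and neutrophils were uneven among the LPS libraries. The summed level of 8 lymphocyte markers was 18.1 to 897 CPM with LPS and 6.68 to 21.2 with PBS, and with LPS most of it was Jchain, which was at 11.9, 294, 901 and 98.5 CPM on the TMM scale with LPS and at 5.82 to 17 with PBS. It was above every PBS library in 3 of the 4 LPS libraries. The neutrophil markers Ngp and Mmp8 were at 0 in all 8 libraries, and the neutrophil sum was 8.05 to 14.9 CPM in the other LPS libraries but 154 in LPS replicate 1, against 1 to 12.2 with PBS. In LPS replicate 1 it was mostly S100a8, S100a9 and Retnlg, at 82.7, 43.6 and 24.5 CPM of total counts. These genes were at 0 in all PBS libraries and at most 3.3 CPM in the other LPS libraries. The part of these cells in the 141 genes was not tested. LPS replicate 3 gave the highest LPS value in 77 of the 141 genes, and without it 106 of the 144 calls remained.

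The same experiment in colon, with its own LPS and PBS libraries, called 97 genes higher, 0.74% of those tested. Of the 141 genes higher in the small intestine, 84 (59.6%) were among them, which is 86.6% of the colon's 97. All 141 had a log2 fold change above 0 in colon, with a median of 2.47, against -0.00224 over all genes tested there. Because the 141 were chosen for passing in the small intestine, where their median was 3.25, the medians of the regions cannot be compared. The difference between the regions was tested directly, as the interaction of LPS and region. The test did not pair libraries, and no label tells whether both regions came from the same mice. The overlap of calls may thus not come from independent animals. No gene passed (0% called by edgeR, 452 genes with an unadjusted p under 0.05), and DESeq2 called 44. These 44 included the pancreatic enzyme genes Prss2, Try4, Ctrb1, Pnlip and Cpa1, with fitted log2 interactions of -25.20 to -23.11. Their SE were 4.95 to 5.26, and fitted values of that size are not to be read as measured fold changes. Among genes called in either region the smallest interaction p belonged to Tnfrsf12a. It was 87.8 ± 17.3 CPM with LPS and 11.3 ± 3.02 with PBS in the small intestine (SD, n = 4), and 51.4 ± 15.3 and 35.6 ± 11.1 in colon. The interaction was 2.43 ± 0.48 on the log2 scale, with an unadjusted p of 0.000109 and an adjusted p of 1 by edgeR and an adjusted p of 0.00084 by DESeq2. Next was Slc40a1, at 28.7 ± 10.6 with PBS and 0.0503 ± 0.101 with LPS in the small intestine but at 4.84 ± 5.62 and 11 ± 13.2 in colon (adjusted p = 0.000582 by DESeq2). The next by interaction p, Fhit, Dpp6 and P2rx2, were called in colon and not in the small intestine. Their interaction adjusted p were 0.0441, 0.0117 and 0.0151 by DESeq2. In colon Fhit was lower with LPS, at 0 CPM against 8.26 ± 5.66 with PBS. Dpp6 and P2rx2 were higher there, at 17.7 ± 20.3 and 7.03 ± 8.48 CPM with LPS, so their LPS libraries varied widely. Il6 was at 346 ± 56.6 CPM with LPS in colon and 160 ± 45 in the small intestine, but neither tool called its interaction (adjusted p = 1 by edgeR and 0.0724 by DESeq2).

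**Figure D4:**
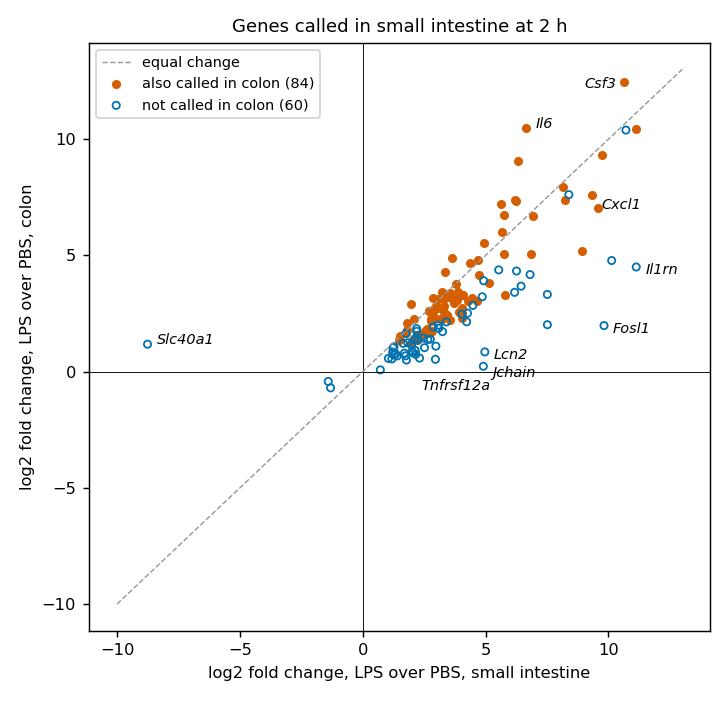
Log2 fold change of LPS over PBS at 2 h in the small intestine (x axis) and in colon (y axis) for the 144 genes called in the small intestine; filled points are the 84 also called in colon and the dashed line marks equal change. All 141 higher genes lie above 0 on both axes, and Slc40a1 has opposite signs.

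At 24 h a separate experiment compared LPS with PBS in small intestine glia of Gpr37 wild-type mice with the same reporter, with 4 and 6 libraries. It was fitted apart from the 2 h libraries, so the difference between times was not tested. There 7.17% of 14883 genes were called, 4.17% higher and 3% lower. These 1067 calls became 640, 684 and 711 without LPS replicate 1, 2 and 3, and 1873 with DESeq2. Of the 141 genes higher at 2 h, 56 (39.7%) were called higher at 24 h, or 9.02% of the 24 h list, and none was called lower. Their median log2 fold change was 1.4 at 24 h, against -0.13 over all genes tested there.

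None of the 14 immediate early genes and none of the 6 genes of the phosphatase and RNA decay list was called at 24 h, with median log2 fold changes of 0.3 and 0.54. Junb, for example, stood at 547 ± 323 CPM with LPS and 519 ± 483 with PBS (SD, n = 4 and 6). Its mean with PBS at 2 h was 83.5 CPM. In each of these genes the mean PBS level was higher at 24 h than at 2 h. For Egr1 it was 908 against 136 CPM, and for Dusp1 595.5 against 219. A missing call at 24 h is therefore no return to the 2 h PBS level, and the difference in PBS levels was not tested. All 4 CXC chemokines were called at 24 h, while Ccl2 was the only one of 5 on the CC list: Ccl4 was at 10 ± 9.07 CPM with LPS and 17.5 ± 32.2 with PBS. Of the NF-kB genes 7 of 10 were called, Nfkbia among them with a log2 fold change of 2.36 ± 0.36, and of the LPS-sensing genes 3 of 3. Il6 was not called at 24 h, at 26.1 ± 33.1 CPM against 9.44 ± 14.

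Several genes had larger fitted fold changes at 24 h than at 2 h. Mt2 had log2 fold changes of 4.74 at 2 h and 6.22 ± 0.67 at 24 h, where it reached 4254 ± 725 CPM. Lcn2 had 4.97 and 9.00 ± 1.12, at 6371 ± 2805 CPM against 12.4 ± 7.87 with PBS at 24 h. Sod2 had 1.23 and 3.67 ± 0.34. Gfap, which was not called at 2 h, was called at 24 h with a log2 fold change of 2.58 ± 0.63 (adjusted p = 0.00928, edgeR). It stood there at 1290 ± 1251 CPM with LPS and 215 ± 116 with PBS, so its LPS libraries varied widely.

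**Figure D5:**
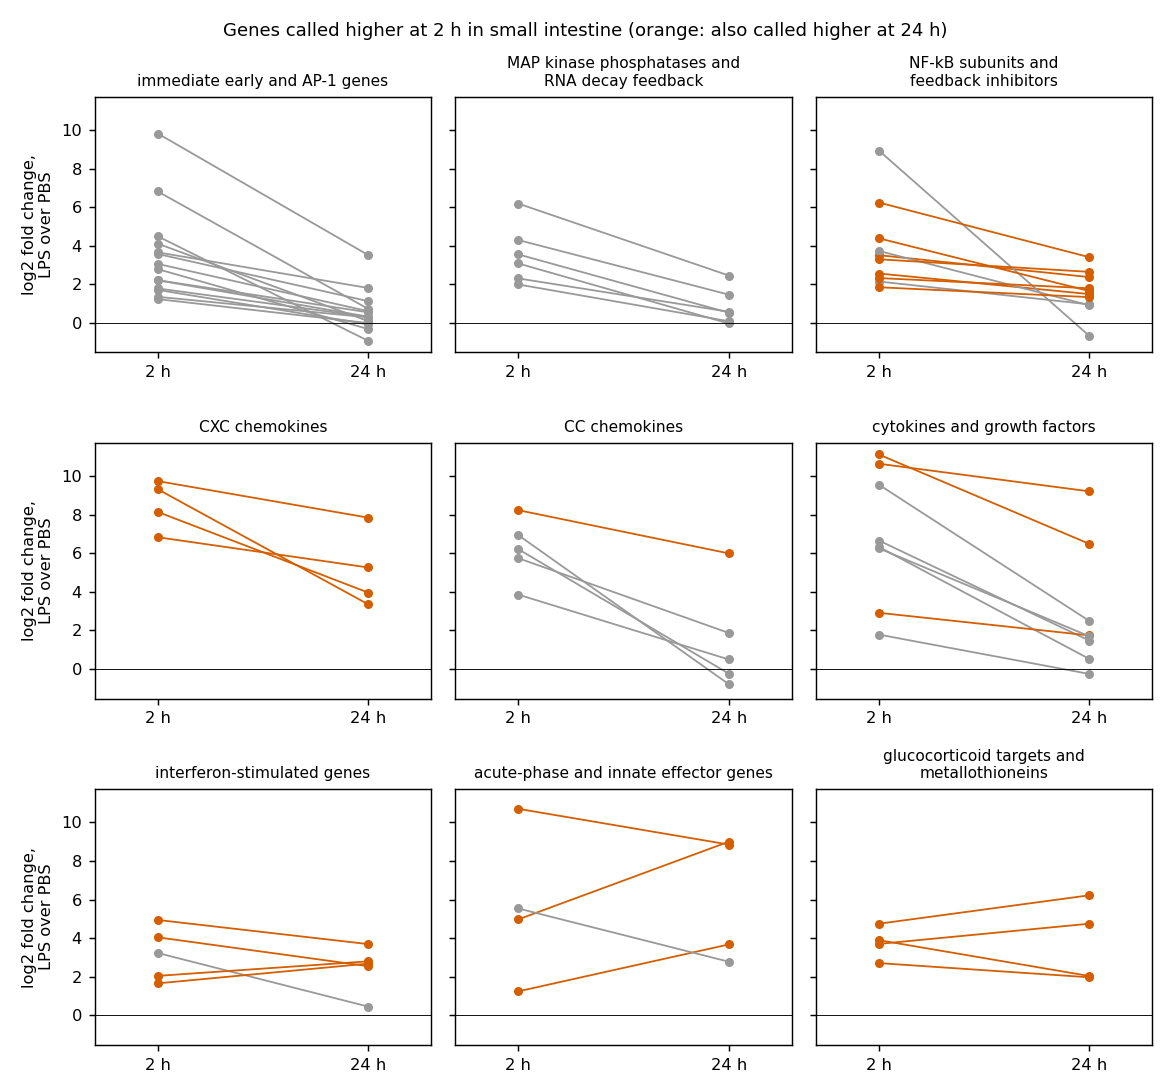
Log2 fold change of LPS over PBS (y axis) at 2 h and at 24 h in small intestine glia, from separate fits, for the genes of 9 lists that were called higher at 2 h; each line is 1 gene and orange lines are genes also called higher at 24 h. No gene of the immediate early or of the phosphatase and RNA decay list is orange, and all 4 CXC chemokines are. Changes at each time are against the PBS libraries of that time.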

How the data were processed

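Per the labels' protocols, libraries were made with Smart-seq2, a full-length PCR-based method without molecular identifiers. The submitters' processing notes name Trim Galore 0.4.4, STAR 2.5.3, DESeq2 and build GRCm38, while the counter, annotation and use of strand are not given in the sources used here. The authors deposited raw read counts per gene symbol, whole numbers with differing totals. From these counts, genes were filtered with filterByExpr (13107 of 21051 kept) and tested with edgeR 4.0.16 (R 4.3.3; TMM, glmQLFit, glmQLFTest, two-sided, Benjamini-Hochberg adjusted p under 0.05) in 1 fit of the 16 libraries of the 2 h experiment. The 24 h counts (37 libraries) were fitted apart, leaving out 25 symbols that read as dates. CPM of single genes is TMM-scaled, while marker sums and levels of untreated libraries are CPM of total counts. Floors of 3 counts and exact 95% intervals cover counting error only.

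The 12 pairs of libraries within a group differed by more than sampling noise (chi-square per degree of freedom 31.4 to 101), and sex-linked genes matched the labels in 8 of 8 libraries. On simulated counts with the real means (12671 genes, 50 changed per fold size) this comparison recovered 0% of 2-fold, 22% of 4-fold, 44% of 8-fold and 54% of 16-fold changes, with 4 false calls. The genes named were the 25 higher and up to 10 lower without overlap and with the smallest p, called members of each list (or its smallest p), fixed glial genes (Gpr37, Sox10, S100b and Gfap among them), and the 5 smallest interaction p. Further uncalled members, and Lmna, Jchain, Pakap, Akap2, Trex1, Atrip and pancreatic enzyme genes, were named after their values were seen. The libraries compared and the lists were chosen with earlier results of these data known. Alternatives were RLE scaling, DESeq2 1.42.0, no filter, sex, a replicate block, the small intestine alone, at 24 h the mice numbered 11 and above, and each library left out. Some named items are not reported here.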

Additional observations from a re-analysis of the deposited data

Results flagged for a closer look

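In 92 groups of 4 libraries, 5 had a highest library whose gap to the next was larger, relative to the group's range, than Dixon's 95% critical value allows. Chance flags about 1 group in 20.

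Mt2 stood at 53.1 CPM in PBS replicate 2, with the next PBS library at 30.7. Cxcl10 stood at 29.9 CPM in PBS replicate 4, with the next at 6.82. S100b stood at 559 CPM in PBS replicate 2, with the next at 300. The summed neutrophil markers stood at 154 CPM in LPS replicate 1, with the next LPS library at 14.9, and the summed mesothelium markers at 737 CPM in PBS replicate 1, with the next PBS library at 363.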

How the results depend on the processing

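Between edgeR and DESeq2 the counts differed most: DESeq2 called 261 genes in place of 144, with 229 higher and 32 lower, 44 genes for the interaction in place of 0, and 1873 genes at 24 h in place of 1067. All 144 genes were among the 261. With RLE scaling 143 genes were called, without the filter 146, with sex as a covariate 135 and in the small intestine alone 140. Leaving out each library in turn gave 107 to 133 genes, 105 to 132 higher and 1 to 6 lower, 0 to 0 for the interaction, 640 to 1054 at 24 h and 49 to 67 shared between the times. At 24 h, 1484 genes were called among mice numbered 11 and above (2 LPS and 5 PBS libraries), and the count was 640, 684 and 711 without LPS replicate 1, 2 and 3. Of the 141 higher genes, 97 kept their call in all 8 such fits and 87 in those and the 7 other alternatives, while Acod1, Mab21l3, Lmna, Nipal1 and Pnp kept it in none of the 8. The 3 lower genes became 1 without LPS replicate 1, PBS replicate 1 or PBS replicate 3, and 6 without LPS replicate 2.

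With the replicate block 153 genes were called, 128 of them among the 144, with 6 lower in place of 3; within the small intestine alone the block gave 118. Deviations of same-numbered LPS and PBS libraries correlated weakly, at 0.0197, 0.126, 0.188 and 0.0602. The mean was 0.0987, against -0.0317 for other numbers. For 3 of 4 LPS libraries the best correlation was with their own number, which is a hint from the data and not the design. Same-numbered libraries also share a sex, and these correlations alone do not tell number from sex.

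Among named genes 1387 values kept direction and call, 152 kept direction only and 6 changed sign, all in genes that were not called. S100b became 0.021 with the replicate block and 0.016 with it in the small intestine alone, and ranged from -0.15 to 0.26 over the fits without a library (above 0 without LPS replicate 3 or PBS replicate 2). Over those fits Dpp6 ranged from -0.62 to 0.017 (above 0 without PBS replicate 1) and P2rx2 from -0.75 to 0.080 (above 0 without PBS replicate 2). The cause of these shifts was not tested. Depth limits low genes: 3 counts correspond to a mean of 0.772 CPM over the PBS libraries and 0.45 over the LPS libraries.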
